A study of Mus musculus with 8 samples.

Results

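The respiratory chain is built from 2 genomes, and its mitochondrially and nuclear-encoded genes were read in liver RNA of mice with diet-induced steatohepatitis. Members were every gene whose symbol in the authors' deposited table starts with Nduf, Sdha to Sdhd, Uqcr, Cox4i, Cox5 to Cox8 or Atp5, and the mitochondrial mRNAs, matched by annotation. This gave 105 genes of 54309 in the count table. They comprise 13 mitochondrial mRNAs and 92 nuclear genes, of which 80 encode subunits and 12 encode assembly factors of complexes I and II. All 105 passed the filter on low counts. Both groups were male C57BL/6 mice fed fructose, palmitate and cholesterol for 16 weeks, a diet that gives a fatty, inflamed and scarred liver, so that the IgG mice were diseased too. The antiCD47 group received antibody against CD47 (200 µg per mouse) from week 8 to week 16. CD47 is a surface protein that restrains engulfment by macrophages. The IgG group received control IgG over the same weeks. The series describes 7 to 8 mice per group, and each group has 4 libraries here, named antiCD47 1 to 4 and IgG 1 to 4. Library depth ran from 43691472 to 55477484 counts. By its title, the study concerns the clearance of dying hepatocytes and liver scarring under this blockade. The labels do not tie libraries to animals, so p-values measure the spread between libraries.

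Oxidative phosphorylation runs through 5 complexes of the inner mitochondrial membrane. Complexes I and II take electrons from NADH and succinate, complex III passes them to cytochrome c, complex IV hands them to oxygen, and complex V makes ATP from the resulting proton gradient. Mitochondrial DNA encodes core membrane subunits of complexes I, III, IV and V. Complex II is wholly nuclear-encoded. The mitochondrial genes are transcribed as long polycistronic RNAs from both strands, which are then cut into mRNAs and rRNAs. Most of the mRNAs are given poly(A) tails. Each nuclear subunit gene has a promoter of its own. Hepatocytes are rich in mitochondria.

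Most mitochondrial mRNAs were higher in antiCD47 livers, and no nuclear member passed the test. Of the 13 mitochondrial mRNAs, 11 passed an adjusted p of 0.05 as higher and 0 as lower (edgeR quasi-likelihood test over 15472 genes, Benjamini-Hochberg adjustment, two-sided). Over all genes tested, 5.44% were called higher and 5.40% lower. The log2 fold change of antiCD47 over IgG was positive for each of the 13, with a median of 0.47, against -0.05 for the 80 nuclear subunit genes and -0.01 for all genes tested. In 12 of the 13 the antiCD47 libraries all lay above the IgG libraries, where 9.51% of all genes did so and 10.1% lay wholly below. Of the 92 nuclear members, 0 passed in either direction with edgeR, DESeq2 or limma voom. Of all genes tested, DESeq2 called 10.9% higher and 9.64% lower, and limma voom 5.21% higher and 6.11% lower. At an unadjusted p under 0.05, 5 of the 92 were past in edgeR, against 32.5% of all genes tested. In the authors' deposited table, which calls 18.4% of its 14362 genes in either direction, 12 of the 13 mitochondrial mRNAs and 0 of the 92 nuclear members have an adjusted p under 0.05. That table is of the same series and does not name its base group, so it is not separate evidence of a direction. The calls in edgeR depended on single libraries, for the mitochondrial mRNAs as over all genes. Without antiCD47 3, 0 of the 13 passed and 0.108% of all genes were called higher, and without IgG 4, 0 of the 13 and 0.0128% of all genes. The count was 1 without IgG 3 (0.300% of all genes) and 6 without IgG 1 (0.581%). It was 10 without antiCD47 1 (11.7%), antiCD47 2 (2.34%), antiCD47 4 (5.24%) or IgG 2 (5.08%). In each of these fits 12 or 13 of the 13 had an unadjusted p under 0.05, against 24.9 to 38.8% of all genes, and their median log2 fold change stayed between 0.40 and 0.50.

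**Figure D1:**
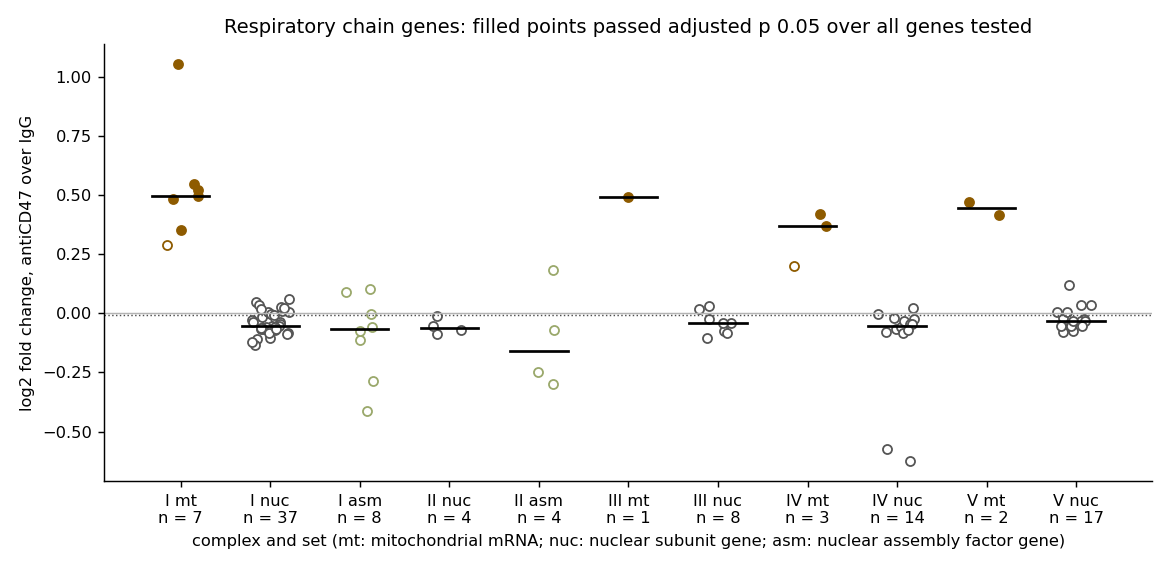
Log2 fold change of antiCD47 over IgG for each member (vertical axis), by complex and by genome (horizontal axis). Filled points passed an adjusted p of 0.05 in edgeR, black lines are medians, the dotted line is the median of all genes tested, and points are spread sideways only for legibility. The mitochondrial mRNAs lie between 0.20 and 1.06, and the nuclear subunit genes between -0.63 and 0.12 with no filled point.

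Part of the mitochondrial sequence also exists in the nucleus, and this bears on which gene a read is counted for. Mouse chromosome 1 carries a row of 5 unprocessed pseudogenes within 3423 bases, all on the minus strand and in mitochondrial gene order. They are copies of mt-Co1 (its end only), mt-Co2, mt-Atp6, mt-Co3 and mt-Nd3. Gm28661 is identical to the first 681 of 684 bases of mt-Co2, Gm10925 to 678 of 681 bases of mt-Atp6, and Gm28437 to 783 of 784 bases of mt-Co3. Gm29216 matches the last 492 bases of mt-Co1 with 6 differences, and Gm28438 differs from mt-Nd3 by T3C. Positions are counted from 1 at the mRNA's 5′ end, with the base of the mRNA first. The mt-Co2 and mt-Co3 pairs are shown at their 3′ ends because nothing but the last bases, in capitals, is lacking from the copy. The mt-Co1 pair is shown because it holds all of its differing bases, in capitals, within the first bases of the copy, from T1056A, C1057T and A1059G to A1060G, C1062A and A1066T. The sequences are from the GENCODE transcripts of the GRCm38 annotation, read 5′ to 3′ along the gene's own strand.
mt-Co2: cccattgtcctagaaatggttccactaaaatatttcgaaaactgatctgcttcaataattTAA
Gm28661: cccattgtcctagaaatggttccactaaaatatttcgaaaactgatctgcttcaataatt
mt-Co3: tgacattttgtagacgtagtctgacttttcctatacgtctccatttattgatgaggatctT
Gm28437: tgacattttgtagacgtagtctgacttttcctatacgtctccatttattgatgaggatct
mt-Co1: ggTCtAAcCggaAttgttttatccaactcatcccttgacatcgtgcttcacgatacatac
Gm29216: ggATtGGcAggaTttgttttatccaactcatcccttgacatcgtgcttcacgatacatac

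Of the mitochondrial mRNAs, 7 encode membrane subunits of complex I, and 6 of these rose. Levels are CPM, counts scaled to a common library size with TMM factors. The mt-Nd4 mRNA was at 8457, 8062, 9000.1 and 7899 CPM in antiCD47 1 to 4, against 6547, 5649, 5375 and 5717 CPM in IgG 1 to 4. The groups did not overlap, and its log2 fold change was 0.52 ± 0.092 (± SE here and below; adjusted p = 0.018 in edgeR). The mt-Nd4l mRNA, whose gene overlaps mt-Nd4 by 7 bases so that their counts are not independent, had the smallest p of the 13. It stood at 1370.3, 1377, 1523 and 1401 CPM in antiCD47 1 to 4, against 1056, 939.9, 913 and 971 CPM in IgG 1 to 4, a log2 fold change of 0.55 ± 0.076 (edgeR adjusted p = 0.0147). The mt-Nd2 mRNA was at 7072, 6693, 7846 and 7067 CPM in antiCD47 1 to 4, against 5479.7, 5149, 4646 and 5059 CPM in IgG 1 to 4 and rose by 0.50 ± 0.089 in log2 terms (edgeR adjusted p = 0.0183). Every antiCD47 library lay above every IgG library for these 3 genes. The mt-Nd5 mRNA averaged 4411 ± 606 CPM in antiCD47 livers and 3158 ± 168 CPM in IgG livers (SD, n = 4 each), and its log2 fold change was 0.48 ± 0.11 (edgeR adjusted p = 0.028). The mt-Nd1 mRNA averaged 6205 ± 626 CPM in antiCD47 livers and 4861.5 ± 247 CPM in IgG livers, and it rose by 0.35 ± 0.095 in log2 terms (edgeR adjusted p = 0.0446). In both genes every antiCD47 library again lay above every IgG library. The mt-Nd3 mRNA did not pass, although its libraries did not overlap, with 1159, 975, 1159 and 958 CPM in antiCD47 1 to 4, against 922, 856, 901 and 795 CPM in IgG 1 to 4 and a log2 fold change of 0.29 ± 0.092 (edgeR adjusted p = 0.068).

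The mt-Nd6 gene is the single mitochondrial protein gene on the light strand, and its level stood apart from the other 12. It was at 36.2, 58.2, 60.4 and 43.9 CPM in antiCD47 1 to 4, against 32.99, 22.1, 17.97 and 22.6 CPM in IgG 1 to 4. The antiCD47 libraries lay above the IgG libraries, but antiCD47 1 and IgG 1 came close to each other. Its log2 fold change of 1.06 ± 0.21 (edgeR adjusted p = 0.0221) is given with the largest SE of the 13. Per length it was at 70.9 CPM per kb of transcript over the 8 libraries, where the other 12 lay between 2075 and 12625 CPM per kb. The libraries were made from polyadenylated RNA, and how fully they captured mt-Nd6 was not tested. Its level here need not be its abundance in the tissue. The sources used here do not say whether counting used strand. Without strand, reads of mt-Nd6 and of transcripts crossing it from the heavy strand cannot be told apart.

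The mt-Cytb mRNA encodes cytochrome b, the heme-bearing membrane subunit of complex III. It was at 9508.5, 8971, 9849.5 and 8293.5 CPM in antiCD47 1 to 4, against 7457, 6327.5, 6114 and 6151 CPM in IgG 1 to 4. IgG 1 stood above the other IgG libraries but below every antiCD47 library. The log2 fold change was 0.49 ± 0.1 (edgeR adjusted p = 0.0244).

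Complex IV takes its catalytic core from mt-Co1, mt-Co2 and mt-Co3, of which the first and the second rose. The mt-Co1 mRNA, which encodes the subunit that reduces oxygen, was the most abundant member at 20752, 20158, 22089 and 19056.5 CPM in antiCD47 1 to 4, against 17299.8, 15103, 14081 and 14882 CPM in IgG 1 to 4. Its log2 fold change was 0.42 ± 0.099 (edgeR adjusted p = 0.0318), with no overlap between the groups. The mt-Co2 mRNA, whose product receives electrons from cytochrome c, was at 1561, 1782, 1739 and 1632 CPM in antiCD47 1 to 4, against 1277, 1426.5, 1286 and 1211 CPM in IgG 1 to 4, a log2 fold change of 0.37 ± 0.081 (edgeR adjusted p = 0.028). The copy Gm28661 held 76.0 to 80.4% of the pair's counts in antiCD47 livers and 74.7 to 79.4% in IgG livers. The level of mt-Co2 itself is therefore uncertain. For mt-Co3 the values were 7175, 6398, 7596 and 6464.5 CPM in antiCD47 1 to 4, against 6483, 5939, 5979.5 and 5679 CPM in IgG 1 to 4. This is the mitochondrial mRNA in which the groups overlapped, since IgG 1 lay above antiCD47 2 and antiCD47 4, and its log2 fold change of 0.20 ± 0.091 did not pass (edgeR adjusted p = 0.161).

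Complex V has mt-Atp6, which forms the proton path beside the rotating ring, and mt-Atp8, a small subunit beside it. Both rose. The mt-Atp6 mRNA was at 9703, 9449, 10732 and 9420.4 CPM in antiCD47 1 to 4, against 8003.5, 7279, 7218 and 6979 CPM in IgG 1 to 4, a log2 fold change of 0.41 ± 0.087 (edgeR adjusted p = 0.0258). The mt-Atp8 mRNA was at 2033, 2055, 2168 and 1998 CPM in antiCD47 1 to 4, against 1577, 1384, 1489 and 1497 CPM in IgG 1 to 4, a log2 fold change of 0.47 ± 0.073 (edgeR adjusted p = 0.016). The groups did not overlap for either gene. The 2 genes share 43 bases, so their counts are not independent.

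**Figure D2:**
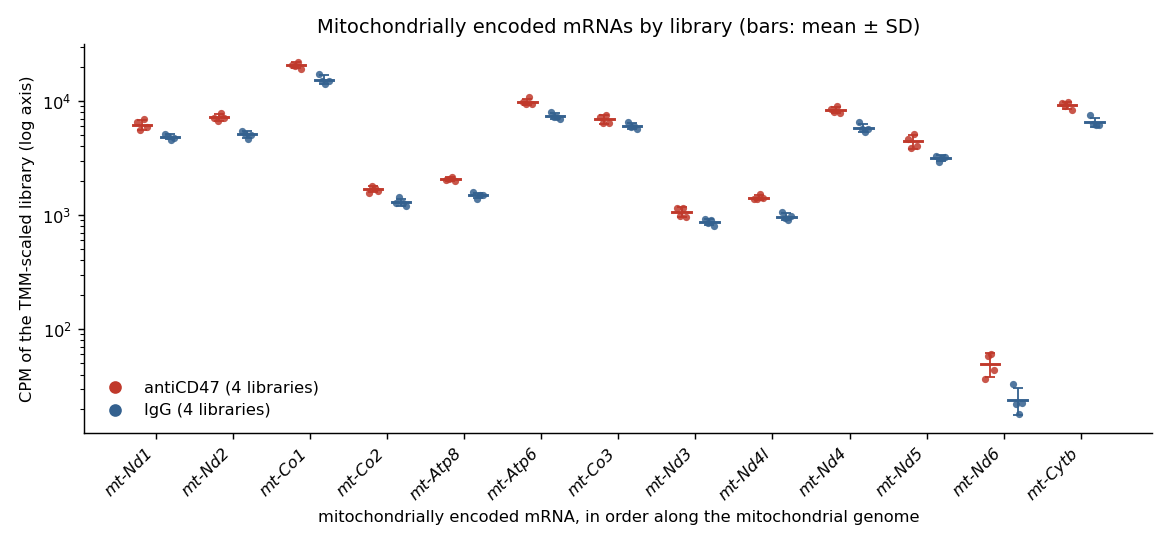
CPM of the 13 mitochondrial mRNAs (log vertical axis) in the 4 antiCD47 libraries (left of each pair) and the 4 IgG libraries (right), in gene order along the mitochondrial genome. Points are libraries and bars the mean ± SD. The mt-Nd6 mRNA lies far below the others, and the groups overlap for mt-Co3 alone.

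Within the mitochondrial pool 3 of the 13 shares differed without overlap between the groups. As a share of the 13 mRNAs' counts, mt-Co1 made up 26.0% ± 0.489 in antiCD47 livers and 26.1% ± 0.629 in IgG livers (SD, n = 4 each), and these overlapped. The mt-Co3 share was 8.76% ± 0.204 in antiCD47 livers and 10.2% ± 0.339 in IgG livers, with every antiCD47 library below every IgG library. That share leaves out counts given to the copy Gm28437, 13.3 to 19.7% of the pair in antiCD47 livers and 10.6 to 12.2% in IgG livers. The shares of mt-Nd4 (10.6% ± 0.0949 in antiCD47 livers, 9.89% ± 0.234 in IgG livers) and mt-Nd4l (1.80% ± 0.0755 in antiCD47 livers, 1.65% ± 0.0375 in IgG livers) were higher without overlap. Both genes overlap by 7 bases, so their shares are not independent. The share of mt-Nd6 was 0.0630% ± 0.0140 in antiCD47 livers and 0.0403% ± 0.00788 in IgG livers, and these overlapped, as did the shares of the remaining 8 genes. These shares need no scaling of the libraries. They were read from the deposited counts without a test. On the CPM scale 9.51% of all genes lay wholly above and 10.1% wholly below, and no such background was computed for shares.

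The counts of 4 mitochondrial mRNAs were divided with their chromosome 1 copies. Gm28661 held most of the counts of the mt-Co2 pair, 80.4, 76.02, 78.5 and 76.8% in antiCD47 1 to 4, against 79.4, 74.7, 75.5 and 77.6% in IgG 1 to 4. The groups overlapped, and so did the share of Gm29216 in the mt-Co1 pair, which ran from 5.91 to 7.72% in antiCD47 livers and from 6.77 to 8.02% in IgG livers. Gm10925 held 11.2, 7.52, 4.58 and 2.36% in antiCD47 1 to 4, against 9.39, 6.998, 9.07 and 7.03% in IgG 1 to 4, of the mt-Atp6 pair. That share spread more widely among the antiCD47 libraries than among the IgG libraries. For mt-Co3 the share of Gm28437 was 18.9, 19.7, 13.3 and 15.8% in antiCD47 1 to 4, against 11.9, 11.9, 12.2 and 10.6% in IgG 1 to 4, higher in every antiCD47 library. Gm28437 itself had a log2 fold change of 0.82 ± 0.14 (edgeR adjusted p = 0.016), and Gm28661 one of 0.46 ± 0.1 (edgeR adjusted p = 0.0275). With each copy's counts added to its mitochondrial mRNA, 11 of the 13 were again called higher in edgeR, against 5.41% of all genes in that fit. Summed in this way, mt-Co2 and Gm28661 came to 7626 ± 478 CPM in antiCD47 livers and 5623 ± 420 CPM in IgG livers, a log2 fold change of 0.44 ± 0.090 (± SE; adjusted p = 0.0247 in edgeR). The sum of mt-Co3 and Gm28437 came to 8314 ± 582 CPM in antiCD47 livers and 6817 ± 415 CPM in IgG livers. The groups of this sum no longer overlapped, and its log2 fold change of 0.29 ± 0.089 did not pass (edgeR adjusted p = 0.0641).

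**Figure D3:**
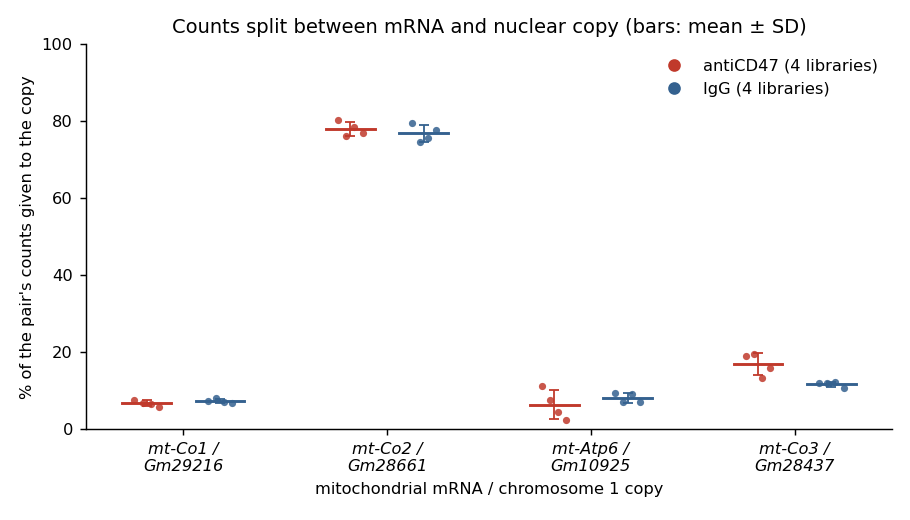
Percent of each pair's counts given to the chromosome 1 copy (vertical axis, 0 to 100), for 4 mitochondrial mRNAs. The 4 antiCD47 libraries stand left and the 4 IgG libraries right in each pair, with mean ± SD. Gm28661 takes 76.0 to 80.4% of its pair in antiCD47 and 74.7 to 79.4% in IgG livers, and the Gm28437 share is the one in which the groups do not overlap.

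The mitochondrial rRNAs are not members and, lacking long poly(A) tails, are poorly sampled in polyA libraries. The 12S rRNA mt-Rnr1 was at 326, 582, 338 and 333 CPM in antiCD47 1 to 4, against 309, 277, 228 and 217 CPM in IgG 1 to 4, and the 16S rRNA mt-Rnr2 at 565, 1052, 663 and 604 CPM in antiCD47 1 to 4, against 544, 482, 429 and 386 CPM in IgG 1 to 4. The antiCD47 2 library stood far above the other 7 for both. Their log2 fold changes of 0.61 ± 0.2 (edgeR adjusted p = 0.0718) and 0.65 ± 0.19 (edgeR adjusted p = 0.0593) did not pass.

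Complex I has 37 nuclear subunit genes, and 0 of them passed (edgeR; 0 at an unadjusted p under 0.05), with log2 fold changes from -0.13 to 0.06. The accessory subunit genes Ndufc2 and Ndufa13 had the smallest p. Ndufc2 was at 47.9, 38.4, 47.04 and 39.4 CPM in antiCD47 1 to 4, against 48.4, 48.9, 47.6 and 44.6 CPM in IgG 1 to 4, a log2 fold change of -0.13 ± 0.085 (edgeR adjusted p = 0.307). Its antiCD47 libraries 1 and 3 lay among the IgG libraries and 2 and 4 below them. Ndufa13, also known as GRIM-19, was at 112, 93.96, 100.2 and 94.4 CPM in antiCD47 1 to 4, against 114, 115, 106 and 100.04 CPM in IgG 1 to 4 (log2 fold change -0.12 ± 0.077, edgeR adjusted p = 0.308). The groups overlapped. Per length Ndufb9 stood highest among these genes, at 194 CPM per kb, against 6.14 CPM per kb for Ndufb2, whose annotated transcript of 4371 bases is long for this family. Their log2 fold changes were 0.04 ± 0.068 for Ndufb9 and -0.03 ± 0.073 for Ndufb2.

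Complex II is made of 4 nuclear subunits, the flavoprotein Sdha, the iron-sulfur protein Sdhb and the membrane anchors Sdhc and Sdhd, and none of the 4 passed (edgeR; 0 of 4 at an unadjusted p under 0.05). Sdha was at 602, 502, 613 and 514 CPM in antiCD47 1 to 4, against 591, 581, 532 and 542 CPM in IgG 1 to 4, a log2 fold change of -0.01 ± 0.087. Sdhd was at 179.7, 145, 172 and 147 CPM in antiCD47 1 to 4, against 173, 174, 175 and 161 CPM in IgG 1 to 4, a log2 fold change of -0.09 ± 0.082 (edgeR adjusted p = 0.49). In both genes antiCD47 2 and antiCD47 4 were the lowest of the 8 libraries. Sdhb (-0.07) and Sdhc (-0.06) had log2 fold changes of the same small size.

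In complex III, 0 of 8 nuclear subunit genes passed (edgeR; 0 of 8 at an unadjusted p under 0.05), with log2 fold changes from -0.10 to 0.03. Uqcrc2, a core subunit, was at 236, 195, 234 and 201 CPM in antiCD47 1 to 4, against 239, 235, 225 and 219 CPM in IgG 1 to 4 (log2 fold change -0.08 ± 0.08, edgeR adjusted p = 0.495). Uqcr10, a small subunit, was at 80.6, 63.8, 77.98 and 60.4 CPM in antiCD47 1 to 4, against 79.2, 79.6, 76.5 and 68.6 CPM in IgG 1 to 4 (log2 fold change -0.10 ± 0.1, edgeR adjusted p = 0.508). In both, antiCD47 1 and 3 lay within or above the IgG range and antiCD47 2 and 4 below it. The Rieske iron-sulfur protein gene Uqcrfs1 had a log2 fold change of -0.04 ± 0.08, and Uqcr11, which stood highest per length at 230.1 CPM per kb, one of 0.03 ± 0.089.

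Complex IV has 14 nuclear subunit genes here, counting Ndufa4 and its paralog Ndufa4l2, and 0 passed in edgeR, with 1 at an unadjusted p under 0.05. That gene was Cox7a1, the heart and muscle form of subunit VIIa, at 0.787, 0.503, 0.799 and 0.764 CPM in antiCD47 1 to 4, against 1.304, 1.13, 1.12 and 0.864 CPM in IgG 1 to 4. Its antiCD47 libraries all lay below the IgG libraries, and its log2 fold change was -0.63 ± 0.23 (edgeR adjusted p = 0.0974) on 137 counts over the antiCD47 libraries and 234 over the IgG libraries. The widely expressed form Cox7a2 was at 84.4 ± 8.93 CPM in antiCD47 livers and 87.1 ± 3.58 CPM in IgG livers (SD, n = 4 each), with a log2 fold change of -0.05 ± 0.08. Cox7a2l, a supercomplex assembly factor of the same family that is counted here among the 14 subunit genes, had one of -0.06 ± 0.077. Ndufa4l2, a hypoxia-induced paralog of Ndufa4, was at 1.48, 0.866, 0.778 and 0.834 CPM in antiCD47 1 to 4, against 1.83, 1.07, 1.55 and 1.45 CPM in IgG 1 to 4. The antiCD47 1 library lay among the IgG libraries and the other 3 antiCD47 libraries below them (log2 fold change -0.57 ± 0.26, edgeR adjusted p = 0.162). Ndufa4 itself was at 193 ± 13.5 CPM in antiCD47 livers and 193 ± 12.2 CPM in IgG livers, a log2 fold change of -0.0008.

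The ubiquitous forms of the other complex IV subunits carried nearly all of the counts of their pairs. Cox4i1 was at 316, 281, 301 and 264 CPM in antiCD47 1 to 4, against 309, 311, 293 and 266 CPM in IgG 1 to 4, and its groups overlapped. Its lung form Cox4i2 stayed at or under 0.336 CPM in every library, and was too low to be tested. Log2 fold changes were -0.07 for Cox6a1, -0.08 for Cox6b1, -0.03 for Cox7b and -0.05 for Cox8a, the forms found in liver. The tissue-restricted forms Cox6a2, Cox6b2 and Cox8b summed to 7, 27 and 11 counts over the antiCD47 libraries and to 34, 36 and 35 over the IgG libraries, and were not tested. Cox7b2 and Cox8c were at 0 counts in all 8 libraries. Cox4i2, Cox6a2, Cox6b2, Cox7b2, Cox8b and Cox8c are not in the authors' deposited table and so are not members.

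Complex V has 17 nuclear subunit genes, of which 0 passed (edgeR; 0 at an unadjusted p under 0.05), with log2 fold changes from -0.08 to 0.12. Atp5b encodes the catalytic beta subunit and was the most abundant nuclear member, at 1115, 981, 1099 and 962 CPM in antiCD47 1 to 4, against 1106, 1159, 1072 and 1044 CPM in IgG 1 to 4 (log2 fold change -0.08 ± 0.079, edgeR adjusted p = 0.531). The groups overlapped. Atp5g1, one of the genes for the c subunit of the rotating ring, was at 87.2, 100.2, 96.9 and 84.9 CPM in antiCD47 1 to 4, against 82.1, 97.8, 81.9 and 78.2 CPM in IgG 1 to 4 (log2 fold change 0.12 ± 0.087, edgeR adjusted p = 0.368). Atp5g2, another c subunit gene, was at 8.58, 3.42, 5.57 and 4.12 CPM in antiCD47 1 to 4, against 8.31, 3.04, 5.32 and 4.56 CPM in IgG 1 to 4, but 89.7 to 95.03% of the counts it shares with the processed pseudogene Gm10175 were given to that copy in antiCD47 livers and 90.03 to 96.4% in IgG livers. Its own level is therefore uncertain. The level of Ndufb4, in complex I, is uncertain in the same way, since the processed pseudogene Ndufb4c held 78.6 to 82.5% of the pair's counts in antiCD47 livers and 79.1 to 80.4% in IgG livers. Atp5l and Cox7c each have a copy with at least 10% as many counts. With the copies added, log2 fold changes were -0.01 for Ndufb4, -0.03 for Atp5l and -0.02 for Cox7c. Atpif1, which encodes the inhibitor of ATP synthase and is not a member, fell, with 13.5, 10.1, 12 and 12.8 CPM in antiCD47 1 to 4, against 15.6, 15.5, 15.9 and 16.9 CPM in IgG 1 to 4 and a log2 fold change of -0.40 ± 0.096 (edgeR adjusted p = 0.0329), a call lost without antiCD47 3, IgG 1, IgG 3 or IgG 4 (edgeR adjusted p of 0.0803 to 0.0974).

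Of the 12 assembly factor genes, 0 passed in edgeR. An unadjusted p under 0.05 was found for 4 of the 12, 3 of them lower, a share close to the 32.5% of all genes. Ndufaf3, which acts early in complex I assembly, was at 7.79, 5.296, 7.37 and 5.03 CPM in antiCD47 1 to 4, against 8.77, 8.49, 8.96 and 7.74 CPM in IgG 1 to 4. Its antiCD47 libraries 2, 3 and 4 lay below all IgG libraries and antiCD47 1 just above the lowest IgG library (log2 fold change -0.41 ± 0.15, edgeR adjusted p = 0.0943). Without antiCD47 1 its log2 fold change was -0.52 and it passed (edgeR adjusted p = 0.0324). Sdhaf1, which helps put iron-sulfur clusters into Sdhb, was at 11.1, 8.78, 8.95 and 9.19 CPM in antiCD47 1 to 4, against 11.9, 11.7, 10.6 and 10.9 CPM in IgG 1 to 4 (log2 fold change -0.25 ± 0.095, edgeR adjusted p = 0.108), and without antiCD47 1 it passed too, at -0.33 (edgeR adjusted p = 0.0233). The others of the 4 were Ndufaf7, at -0.29 ± 0.12 (edgeR adjusted p = 0.13), and Sdhaf2, which was at 22.9, 25.3, 24.5 and 20.3 CPM in antiCD47 1 to 4, against 19.8, 19.99, 20.9 and 21.1 CPM in IgG 1 to 4 and had a positive log2 fold change of 0.18 ± 0.079 (edgeR adjusted p = 0.146). Without antiCD47 1, 4 assembly factors were called lower (Ndufaf3, Sdhaf1, Ndufaf7 and Sdhaf4), as was the subunit gene Ndufa4l2 at -0.83 (edgeR adjusted p = 0.0346), and 11.4% of all genes were called lower in that fit. Ndufaf1, a chaperone of complex I assembly, stood highest per length at 14.6 CPM per kb, with a log2 fold change of -0.11 ± 0.084. Sdhaf3 stood lowest, at 1.41 CPM per kb, with one of -0.07 ± 0.11.

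On TMM-scaled CPM the nuclear subunit genes varied between libraries within both groups. Of the 80 log2 fold changes, 17 were above 0 and 63 below. On the plain share of all counts, given below, the groups did not overlap. Of the 80, the lowest library was antiCD47 4 for 41, antiCD47 2 for 22 and IgG 4 for 15, and the highest was antiCD47 1 for 36 and IgG 2 for 29. The median coefficient of variation over the 80 genes was 8.78% among antiCD47 libraries and 6.09% among IgG libraries. Their summed level was 11152, 9644, 10875 and 9399 CPM in antiCD47 1 to 4, against 10901, 11108.5, 10446 and 9871 CPM in IgG 1 to 4. The groups overlapped, at 10268 ± 874 CPM in antiCD47 livers and 10582 ± 548 CPM in IgG livers (SD, n = 4 each).

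Set against the nuclear subunits of the same library, the mitochondrial mRNAs were higher in antiCD47 livers whatever the scaling. The 13 summed to 80006, 75341, 85814 and 74103 CPM in antiCD47 1 to 4, against 64616, 57915, 55788.5 and 56953.5 CPM in IgG 1 to 4. The ratio of their counts to those of the 80 nuclear subunit genes, which needs no scaling, was 7.17, 7.81, 7.89 and 7.88 in antiCD47 1 to 4, against 5.93, 5.21, 5.34 and 5.77 in IgG 1 to 4. It averaged 7.69 ± 0.346 in antiCD47 livers and 5.56 ± 0.340 in IgG livers (SD, n = 4 each), a log2 difference of 0.47, and no antiCD47 library reached down to an IgG library. The same held in each complex with members of both genomes. For complex I the ratio was 11.3 ± 0.540 in antiCD47 livers and 7.95 ± 0.515 in IgG livers, and for complex III 7.91 ± 0.316 in antiCD47 livers and 5.45 ± 0.452 in IgG livers. For complex IV it was 16.3 ± 0.827 in antiCD47 livers and 12.4 ± 0.822 in IgG livers. For complex V it was 3.13 ± 0.192 in antiCD47 livers and 2.25 ± 0.120 in IgG livers. With the chromosome 1 copies added to the mitochondrial side, the ratio over all complexes was 8.62 ± 0.302 in antiCD47 livers and 6.22 ± 0.387 in IgG livers. The ratio is a score over the members and was given no p-value.

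**Figure D4:**
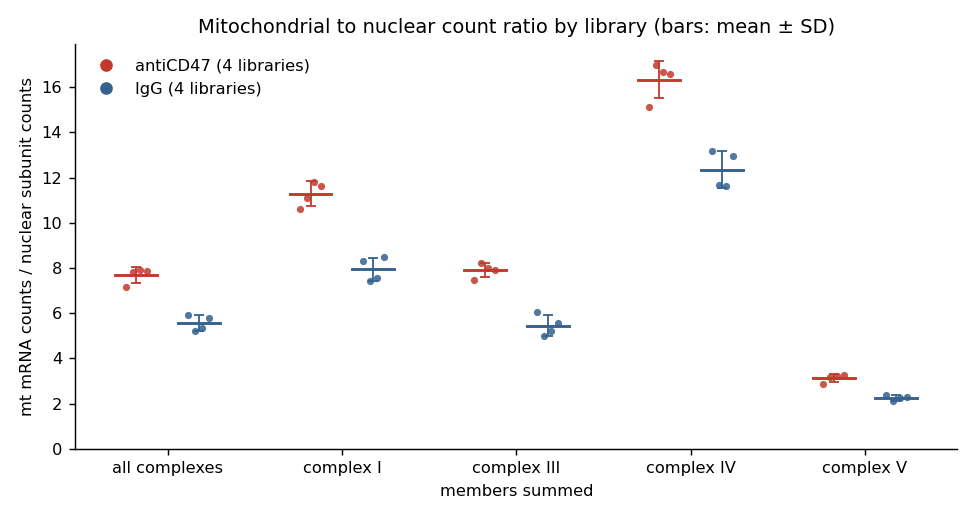
Ratio of mitochondrial mRNA counts to nuclear subunit counts in each library (vertical axis), over all complexes and within complexes I, III, IV and V. The 4 antiCD47 libraries stand left and the 4 IgG libraries right, with mean ± SD. The groups do not overlap in any of the 5 sets.

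**Figure D5:**
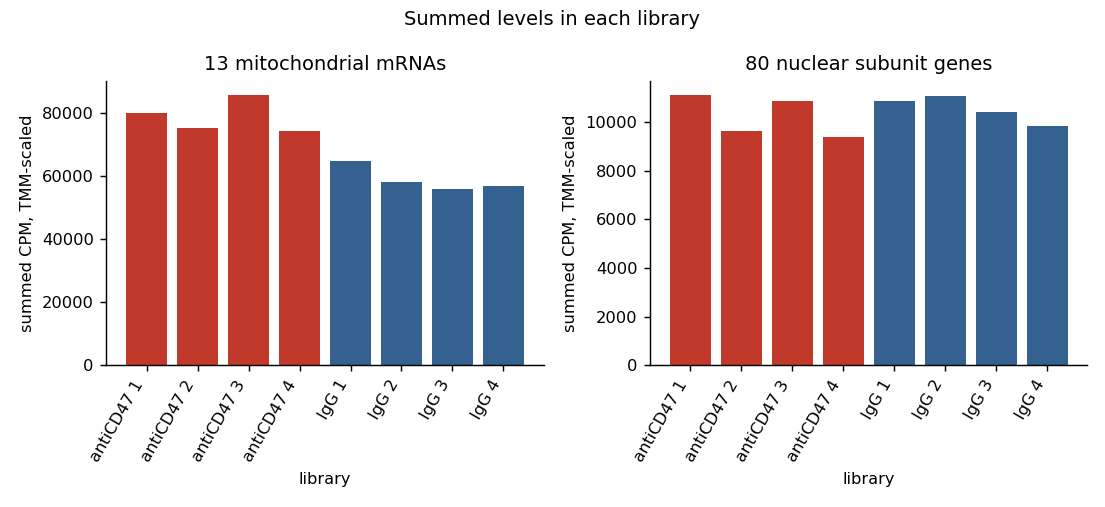
Summed CPM (vertical axes, from 0) of the 13 mitochondrial mRNAs (left panel) and of the 80 nuclear subunit genes (right panel) in each library. The antiCD47 bars (74103 to 85814 CPM) stand above the IgG bars (55789 to 64616 CPM) in the left panel, and the groups overlap in the right panel.

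What moved between the groups in absolute share depends on how libraries are scaled. As a percent of all counts, the mitochondrial mRNAs made up 7.64, 6.74, 7.83 and 7.32% in antiCD47 1 to 4, against 6.63, 6.002, 6.12 and 6.32% in IgG 1 to 4. The nuclear subunits made up 1.07, 0.863, 0.992 and 0.929% in antiCD47 1 to 4, against 1.12, 1.15, 1.15 and 1.09% in IgG 1 to 4. On this plain share the mitochondrial side was higher and the nuclear side lower, each without overlap. The TMM factors, which set the scaling used above, were 0.895 to 0.989 in antiCD47 libraries and 1.03 to 1.11 in IgG libraries. With library totals in place of TMM the median of all genes moved to -0.19 on the log2 scale. In that fit 6 of the 13 mitochondrial mRNAs were called higher in edgeR, against 2.77% of all genes. Of the nuclear members 29 of the 80 subunit genes and 5 of the 12 assembly factors were called lower, against 20.4% of all genes. Relative to the median of all genes, the median of the mitochondrial mRNAs was 0.48 with either scaling, and that of the nuclear subunits -0.04.

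Genes that control respiratory chain expression were read from a list of biogenesis regulators, of which 12 were tested, 2 rose and 2 fell in edgeR. Over all genes tested, edgeR called 5.44% higher and 5.40% lower. In limma voom 2 of the 12 were called higher and 2 lower, against 5.21% and 6.11% of all genes. In DESeq2 5 were called higher and 2 lower, against 10.9% and 9.64% of all genes. The coactivator gene Ppargc1a, which encodes PGC-1alpha, was at 6.77, 4.99, 4.63 and 7.43 CPM in antiCD47 1 to 4, against 11.1, 9.64, 14.2 and 12.2 CPM in IgG 1 to 4. The groups did not overlap, and its log2 fold change was -0.99 ± 0.17 (edgeR adjusted p = 0.0176). Esrra, which encodes the nuclear receptor ERRalpha that works with PGC-1alpha, was at 21.2, 15.9, 14.7 and 19.2 CPM in antiCD47 1 to 4, against 27.5, 26.3, 26.5 and 23.96 CPM in IgG 1 to 4 and fell too (log2 fold change -0.55 ± 0.11, edgeR adjusted p = 0.025). Pprc1, a PGC-1 related coactivator gene, rose, with 18.3, 27.99, 22.9 and 17.2 CPM in antiCD47 1 to 4, against 10.997, 15.3, 10.9 and 11.03 CPM in IgG 1 to 4 and a log2 fold change of 0.84 ± 0.17 (edgeR adjusted p = 0.0246). Nrf1, the nuclear respiratory factor gene, was at 7.69, 9.69, 9.44 and 7.85 CPM in antiCD47 1 to 4, against 5.72, 6.98, 6.72 and 6.62 CPM in IgG 1 to 4 (log2 fold change 0.41 ± 0.11, edgeR adjusted p = 0.0446). For all 4, which were named for their calls, the groups did not overlap, with Ppargc1a and Esrra lower and Pprc1 and Nrf1 higher in antiCD47 livers. Their calls with single libraries left out are not given here. Without IgG 4, edgeR called 0.0128% of all genes higher. Of all genes tested, 9.51% lay wholly above and 10.1% wholly below. The median of the 12 was 0.20.

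Other mitochondrial gene lists moved little. Of 31 tested genes for mitochondrial DNA replication, transcription and RNA handling, 0 passed in edgeR or limma voom, 9 had an unadjusted p under 0.05 in edgeR (6 higher, 3 lower), near the 32.5% of all genes, and DESeq2 called 3 higher and 1 lower, against 10.9% and 9.64% of all genes. The 2 with the smallest p were Trmt10c, a subunit of mitochondrial RNase P, at 0.36 on the log2 scale (edgeR adjusted p = 0.0509), and Mterf3, a regulator of mitochondrial transcription, at 0.30 (edgeR adjusted p = 0.0585). Of 52 other assembly factors and electron carriers, 0 passed in edgeR, DESeq2 or limma voom. An unadjusted p under 0.05 in edgeR was found for 4, against 32.5% of all genes, with Tmem186 (0.27) and Nubpl (-0.26) the first. Of 13 citric acid cycle enzymes, 0 passed in edgeR or limma voom and DESeq2 called 1 higher. Fh1, fumarase, had the smallest p at 0.39 (edgeR adjusted p = 0.0799), and citrate synthase Cs the next at -0.18. Of 22 membrane and matrix housekeeping genes, the chaperonin gene Hspd1 rose (0.29 ± 0.074, edgeR adjusted p = 0.04) and the adenine nucleotide carrier gene Slc25a4 fell (-0.53 ± 0.14, edgeR adjusted p = 0.0464), the second of them with overlapping groups. DESeq2 called 3 of the 22 higher and 1 lower, and limma voom 1 higher and 0 lower. Over all genes the shares called higher and lower were 5.44% and 5.40% in edgeR, 10.9% and 9.64% in DESeq2, and 5.21% and 6.11% in limma voom. Of 79 mitochondrial ribosomal protein genes, a list added after the data were seen, 0 passed in edgeR, DESeq2 or limma voom. An unadjusted p under 0.05 in edgeR was found for 3, against 32.5% of all genes, and the median was -0.03.

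Promoters of the nuclear members were searched for letters of NRF1 and of estrogen-related receptors, regulators named above, and of ETS factors and YY1. No link to the mitochondrial mRNAs was tested. For 78 of the 92 nuclear members RefSeq gives a promoter, and the 250 bases before the start site were searched on both strands. The NRF1 letters GCGCATG were found in 11 of the 78 (14.1%), against 3.7% of 27025 genes. The ETS letters CCGGAAG, to which GABPA can bind, were found in 16 (20.5%), against 7.8% of genes. The estrogen-related receptor letters AAGGTCA were found in 5 (6.4%), against 4.7%, and the YY1 letters AAGATGG in 1 (1.3%), against 5.2%. A match is a description of letters and not a binding site. Atp5l held 3 kinds of match, and Cox6a1, Atp5j and Ndufb6 held 2 each. The stretches before the start sites of Cox6a1 and Atp5l are shown as examples with NRF1 and ETS matches, 5′ to 3′ along the gene, with matches in capitals and credited to RefSeq (GRCm38.p6). In Cox6a1, chr5:115348959-115349140 on the minus strand, the first run of capitals is a pair of NRF1 matches that overlap on opposite strands, and the second is an ETS match. In Atp5l, chr9:44920743-44920992 on the minus strand, the runs are NRF1, ETS and ERR matches in that order.
Cox6a1: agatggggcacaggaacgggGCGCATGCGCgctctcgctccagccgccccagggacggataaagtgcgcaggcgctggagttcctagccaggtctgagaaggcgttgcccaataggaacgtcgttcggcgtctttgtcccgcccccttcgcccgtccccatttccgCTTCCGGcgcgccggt
Atp5l: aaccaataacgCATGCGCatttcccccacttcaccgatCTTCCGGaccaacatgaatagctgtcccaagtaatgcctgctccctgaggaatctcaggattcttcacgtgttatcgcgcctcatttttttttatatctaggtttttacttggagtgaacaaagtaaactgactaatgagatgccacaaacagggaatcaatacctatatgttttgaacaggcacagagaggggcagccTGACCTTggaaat

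Neither gene passed the test. Cox6a1 was at 210.3, 177, 205 and 185 CPM in antiCD47 1 to 4, against 215, 223, 196 and 182 CPM in IgG 1 to 4 (log2 fold change -0.07 ± 0.086, edgeR adjusted p = 0.604), and Atp5l had a log2 fold change of -0.06 (edgeR adjusted p = 0.67). The groups overlapped for both.

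Marker RNA of several cell types differed between the groups beside these results. In whole liver fewer cells of a type and less RNA per cell cannot be told apart. Hepatocyte markers summed to 55341 to 66176 CPM in antiCD47 livers and to 53457 to 58982 CPM in IgG livers, so the labelled tissue carries its defining markers. Of these 7 markers, edgeR called 1 higher (Hnf4a) and 0 lower. DESeq2 called 1 higher and 1 lower, and limma voom 1 higher and 0 lower. Over all genes tested, edgeR called 5.44% higher and 5.40% lower. Biliary markers were lower for 5 of 6, at 94.7 to 327 CPM summed in antiCD47 livers and 395 to 544 CPM in IgG livers. Most of that sum was Spp1, at 78.4 to 301 CPM in antiCD47 livers and 358 to 497 CPM in IgG livers. Stellate cell and fibroblast markers were lower for 4 of 7, at 535 to 748 CPM in antiCD47 livers and 838 to 1191 CPM in IgG livers. These 4 were Col1a1, Col1a2, Col3a1 and Lum, while Lrat, Dcn and Reln were not called. Red cell markers were higher (7 of 7; 1231 to 2215 CPM in antiCD47 livers, 445 to 680 CPM in IgG livers), and so were neutrophil markers (5 of 5 tested; 13.8 to 31.01 CPM in antiCD47 livers, 5.91 to 8.09 CPM in IgG livers) and Kupffer cell markers (4 of 8; 432 to 713 CPM in antiCD47 livers, 246 to 442 CPM in IgG livers, the one of these 5 lists whose summed ranges overlapped). Sinusoidal endothelial markers (0 of 5), smooth muscle markers (0 of 6 tested) and fat cell markers (0 of 2 tested, Ucp1 and Lep at 0) did not pass in edgeR, DESeq2 or limma voom. The summed CPM of each of these lists overlapped between groups. At an unadjusted p under 0.05, 1 sinusoidal marker and 0 of the other 2 lists were past in edgeR. Skeletal and heart muscle markers were too low to test, at no more than 0.185 CPM summed in antiCD47 livers and 1.21 CPM in IgG livers, with Myh2 and Mb at 0. The part of cell makeup in the mitochondrial and nuclear values was not tested.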

How the data were processed

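Polyadenylated RNA of whole liver was sequenced as TruSeq libraries, per the labels' protocols, 4 labelled antiCD47 and 4 labelled IgG. The authors deposited a table of estimated counts per Ensembl gene, in whole numbers. The submitters' processing notes name Salmon 1.3.0, DESeq2 1.32.0 and GRCm39 without saying what each was used for. The authors' comparison table holds, per the file headers, a mean normalized signal, log2 fold changes and their errors, p-values and adjusted p-values, and a rank score. Its base group is not named, and it served for member symbols and for counts of calls.

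Counts were filtered with filterByExpr, scaled by TMM and tested by quasi-likelihood (glmQLFTest, two-sided, no covariates) in edgeR 4.0.16 under R 4.3.3, with Benjamini-Hochberg adjustment over 15472 genes. CPM uses the TMM-scaled library size, and CPM per kb the principal transcript of GENCODE vM21. Of 93 matching nuclear symbols, Ndufb4 and Ndufb4b share an Ensembl gene and were counted once. Nuclear copies were found by shared 31-base words. Depth of 43691472 to 55477484 counts limits counting error, not the spread between libraries. No libraries of a group agreed within sampling noise (chi-square at least 26.0 per degree of freedom), so all 8 were kept. The fits were tested on simulated data.

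Members, gene lists and alternatives were chosen with earlier results of these data known. Always named were the mitochondrial mRNAs, members past the threshold, the 2 smallest p and the highest and lowest level per length in each complex and among assembly factors, the isoform pairs and the ATP synthase inhibitor. From other lists, genes past the threshold were named, or otherwise the 2 with the smallest p. Atp5l, Atp5j, Ndufb6, Ndufb4, Cox7c, Ndufaf7, Sdhaf2, Sdhaf4 and the copies were named after their values were seen. Prorp and Phb1 matched no symbol in the table. Alternatives were DESeq2 size factors, library totals, upper quartile scaling, TMM without mitochondrial genes, a looser and a stricter filter, DESeq2 1.42.0, limma voom 3.58.1, the replicate number as a block and leaving out each library. Adding copies to their members was chosen after seeing the data. Figures were drawn with matplotlib 3.10.9.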

Additional observations from a re-analysis of the deposited data

Results flagged for a closer look

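In 7 measures 1 library lay apart from the other 3 of its group by a Dixon gap test at the 95% level, which chance alone gives in about 1 of 20 groups, and 104 groups were examined. Among mitochondrial measures, mt-Cytb was at 7457 CPM in IgG 1 and at 6114 to 6328 CPM in the other 3 IgG libraries. The ratio of mitochondrial to nuclear subunit counts was 7.17 in antiCD47 1 and 7.81 to 7.89 in the other 3 antiCD47 libraries, and still above every IgG library. Mitochondrial rRNAs took 0.146% of counts in antiCD47 2 and 0.0851 to 0.0926% in the other 3 antiCD47 libraries. The chromosome 1 copies took 0.821% of counts in IgG 1 and 0.712 to 0.726% in the other 3 IgG libraries.

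Among nuclear members, Cox7a1 was at 0.503 CPM in antiCD47 2 and at 0.764 to 0.799 CPM in the other 3 antiCD47 libraries. Ndufa4l2 was at 1.48 CPM in antiCD47 1 and at 0.778 to 0.866 CPM in the other 3. Sdhd was at 161 CPM in IgG 4 and at 173 to 175 CPM in the other 3 IgG libraries.

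Outside the genes tested, Gm28438, the chromosome 1 copy of mt-Nd3, had 312 counts in antiCD47 2 and 0 in the other 3 antiCD47 libraries and in all 4 IgG libraries, where a count of 0 allows up to 3 counts. Its share of the pair with mt-Nd3 in antiCD47 2 was 0.640%.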

How the results depend on the processing

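Library totals in place of TMM gave 428 genes higher and 3153 lower of all tested, 6 mitochondrial mRNAs higher and 29 nuclear subunit genes lower, with the median of all genes at -0.19. DESeq2 gave 1683 genes higher and 1491 lower. Leaving out 1 library at a time gave 2 to 1843 genes higher and 0 to 1787 lower, 0 to 10 mitochondrial mRNAs higher, 0 to 1 nuclear subunit genes lower (Ndufa4l2, without antiCD47 1), and a ratio difference of 0.44 to 0.50 in log2 terms. Under DESeq2 size factors in edgeR, TMM without mitochondrial genes, both filters and limma voom 11 mitochondrial mRNAs were higher, 9 under upper quartile scaling and 12 under DESeq2.

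Of 234 values for mitochondrial mRNAs under 18 alternatives, 184 stayed as they were, 48 lost a call, 2 gained one and 0 changed sign as a call. The 184 include values of mt-Co3 and mt-Nd3, which had no call to lose. Of 522 values for 29 named nuclear members, none of which had a call to lose, 506 stayed uncalled and 16 gained a call, and 36 that never passed changed sign. Atpif1 lost its call in 4 of 18. Gained calls came from library totals, the replicate block, DESeq2 or the fit without antiCD47 1. The ratio difference was 0.52 as a mean over log2 CPM and 0.47 without mt-Co1, with assembly factors, or with copies added.

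Deviations of same-numbered libraries correlated at 0.032, 0.157, -0.023 and 0.035, and those of differently numbered libraries at -0.162 to 0.161. With 4 libraries per group these values cannot settle whether the shared replicate numbers pair libraries. With the replicate block edgeR called 1214 genes higher and 1211 lower, 12 mitochondrial mRNAs higher, 0 nuclear subunit genes and the assembly factor Ndufaf3 lower. Low members such as Cox7a1 (137 counts in antiCD47 and 234 in IgG livers) are limited by depth.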
